A study of Mus musculus with 12 samples.

Results

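Voltage-gated sodium, calcium, potassium and pacemaker channels and the other potassium channels were examined in mouse hearts given VEGF-B with or without endothelial VEGFR1. A probe was a member if its gene symbol on the platform began with Kcn, Scn or Cacn, or with Hcn and a digit, and Kcnj8 and Kcne3 were left out. This rule took 261 of the 45281 probes, which stand for 126 of 19057 gene symbols. It took in 3 genes that do not encode channel subunits, Kcnq1ot1 and Kcnmb4os1, which are transcripts without a known protein, and Scnm1, a splicing factor.

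The hearts came from 12 adult male C57Bl/6J mice, with 1 bead array (Illumina) of whole-heart RNA per mouse. Endothelial deletion used floxed Flt1, the gene of VEGFR1, with a tamoxifen-inducible Cre under the Cdh5 promoter (Cdh5-Cre-ERT2). An adeno-associated virus (AAV) given intraperitoneally carried VEGF-B, a ligand of VEGFR1, or a scramble control. The groups were VEGFR1del_VEGFB, the deletion with VEGF-B (4 hearts), WT_VEGFB, wild type with VEGF-B (2 hearts), VEGFR1del_Scramble, the deletion with scramble (3 hearts), and WT_Scramble, wild type with scramble (3 hearts). All of the mice had received a virus. Their exact age, the promoter and target cells of the VEGF-B virus, and whether the wild-type mice carried Cre or floxed alleles or received tamoxifen are not given in the sources used here.

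A heartbeat runs on these channels in turn. Sodium channels fire the upstroke of the cardiac action potential, L-type calcium channels admit the calcium that triggers contraction, and potassium currents restore the resting voltage. In mouse ventricle much of the fast repolarization is carried by the transient outward current, whose pore subunits Kcnd2 and Kcnd3 work with the cytosolic partner Kcnip2. Inward rectifiers of the Kcnj genes and leak channels of the Kcnk genes (K2P channels) hold the resting potential, and Hcn channels pass the pacemaker current. Auxiliary subunits (Kcne, Kcnab, Kcnip, Scn4b, Cacnb and their kin) set how pores gate and where they sit.

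Each array detected 16685 to 18210 probes above background, 59 to 73 of them members, at median raw signals of 98.7 to 111.5. The library labelled VEGFR1del_Scramble replicate 3 went against its label. Its Flt1 read 11.56 on the log2 scale, against 8.19 and 8.46 in the other VEGFR1del_Scramble hearts, 8.93 to 9.47 in VEGFR1del_VEGFB hearts, 11.22 and 11.51 in WT_VEGFB hearts and 10.79 to 10.91 in WT_Scramble hearts. Whether the Flt1 probe lies in the deleted part was not tested. Results that rest on this library are given with and without it. The Vegfb signal did not set the VEGF-B hearts above the scramble hearts. On the log2 scale it was 12.71 and 12.79 in WT_VEGFB hearts and 12.72 to 12.90 in WT_Scramble hearts. In deleted hearts it was 12.43 to 12.72 with VEGF-B and 12.68 to 12.74 with scramble. Whether virus-derived Vegfb RNA would register on the array was not tested, so these values do not check the VEGF-B labels. In a second table, which the authors normalized in 3 sets of arrays, the VEGFR1del_VEGFB hearts form a set of their own, so in every comparison of that group the difference tested and the set cannot be told apart.

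Of the 126 genes, 59 could be measured. A probe counted as above background when its detection p-value was under 0.05 on at least 2 arrays, and by this rule 88 probes of these 59 genes passed. Of these genes, 29 were detected on all 12 arrays and 30 on 2 to 11 arrays. Of the 67 genes that did not pass, 8 were detected on 1 array and 59 on no array. A gene that passed through only some groups was favoured to differ between them, so counts over the 59 are descriptions.

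Detection differed by class. Among voltage-gated potassium channel pores and their silent partners, which do not conduct alone but join other pores, 17 of 35 genes passed. The inward rectifiers passed with 7 of 12 genes, the leak channels with 7 of 14 and the potassium channel auxiliary subunits with 7 of 15. Sodium channel pores passed with 5 of 7 genes, sodium channel beta subunits with 2 of 3, calcium channel pores with 5 of 9, calcium channel auxiliary subunits with 4 of 14 and pacemaker channels with 2 of 3. Only Kcnn1 passed among the 8 calcium- and sodium-activated potassium channels, and none of the 3 epithelial sodium channel subunits did. The plot of detection by class shows the same counts.

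**Figure D1:**
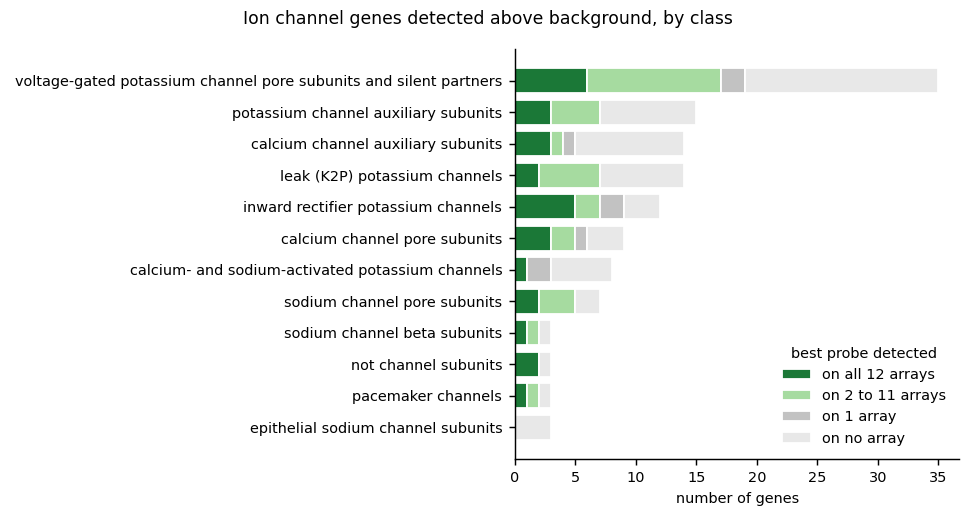
Number of ion channel genes (x axis) by class (y axis), split by the number of arrays on which the gene's most often detected probe was above background. Voltage-gated potassium pores are the largest class, with 17 of 35 genes above background on at least 2 arrays, and none of the 3 epithelial sodium channel subunits is.

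Of 22 channel genes named for their role in heart muscle and analysed here, 20 were above background. Kcnq1, the pore of the slow delayed rectifier, and Hcn4, the pacemaker channel of the sinus node, were detected on none of the 12 arrays. Of the markers that define heart muscle, 11 of 11 on the array were above background, and their summed linear signal ran from 146032 to 151621 in VEGFR1del_VEGFB hearts and from 149345 to 150274 in WT_Scramble hearts. Bright markers such as Myl2, at log2 signals of 14.34 to 14.55 over the 12 arrays, weigh most in this sum. It says little about the dimmer markers.

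Hearts that combined the deletion with VEGF-B were set against WT_Scramble hearts to read the joint change. Kcnv2, Kcnd2, Kcnip2, Kcna6, Scn4b, Cacna1c, Kcnj5, Kcnj11 and Kcnk3 fell, and Kcne4, Kcne1, Kcnk6, Kcna5, Kcnab2, Kcnj15, Kcnip3 and Scn2b rose. Of the 59 genes tested, 17 were called at an adjusted p under 0.05 (limma, adjusted over all 14240 features), 8 higher and 9 lower. That is 28.8% of these genes, against 21% of all features called, 11.6% of features higher and 9.43% lower. The median log2 fold change was -0.18 over the channel genes and -0.03 over all features. Values of VEGFR1del_VEGFB and WT_Scramble hearts did not overlap for 22 of the 59 genes, or 37.3%, and for 31.3% of all features. With each array scaled to its median instead, 8 were higher and 5 lower, and in the authors' normalized table likewise 8 were higher and 5 lower. Leaving out 1 array at a time gave 11 to 19 called genes, 11 without WT_Scramble replicate 2. Apart from the fit without the doubted library, the share of all features called is not given for these settings. Their counts describe the channel genes only. Without the doubted library 58 genes were tested and 18 called, 8 higher and 10 lower, against 21.8% of all features, the addition being Kcnh7 (Erg3), which was not above background on any VEGFR1del_VEGFB array. In whole-heart RNA, fewer cells of a type and less RNA per cell cannot be told apart.

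**Figure D2:**
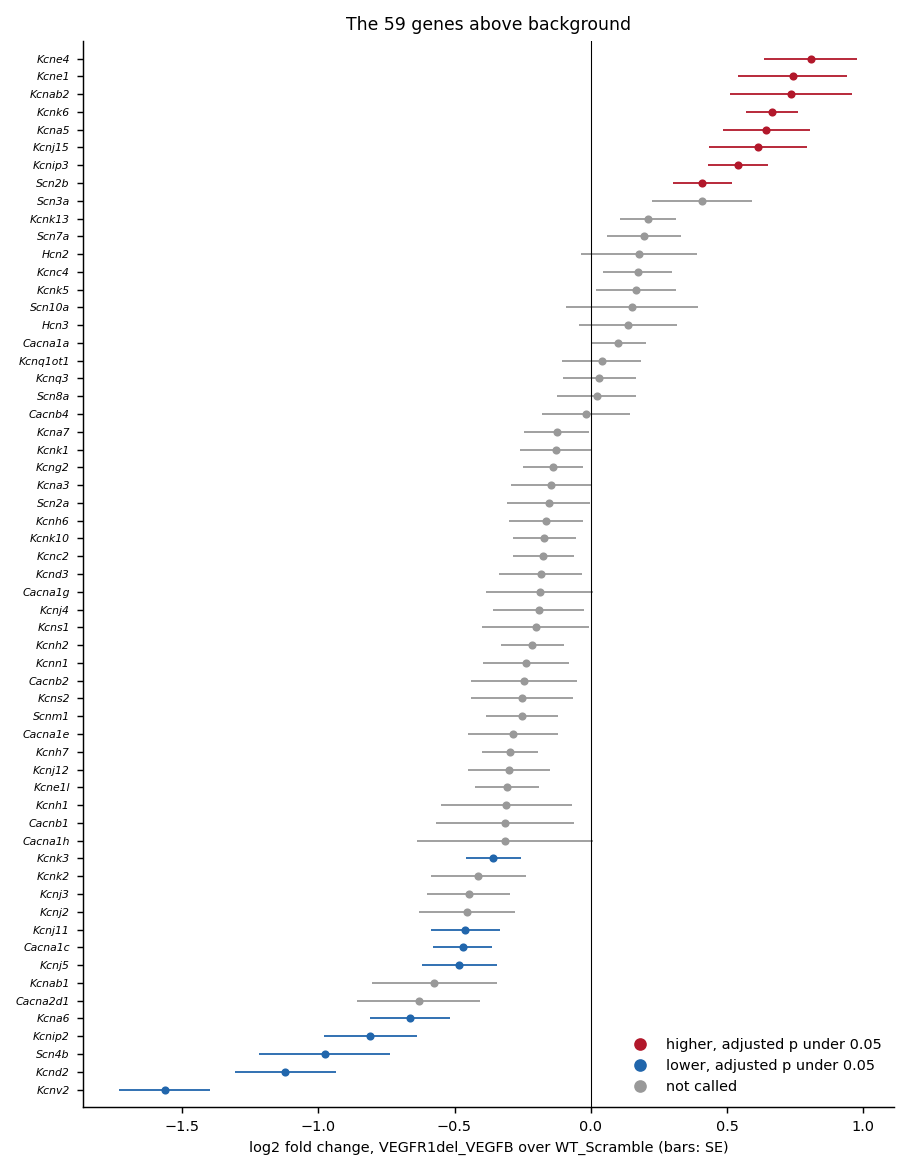
Log2 fold change of VEGFR1del_VEGFB over WT_Scramble hearts (x axis) with its standard error for each of the 59 genes above background (y axis), coloured by the call. Kcnv2 lies lowest at -1.56 and Kcne4 highest at 0.81, with 8 genes called higher and 9 lower.

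Kcnv2 showed the largest change of any channel gene in this comparison. It encodes a silent subunit (Kv8.2) that joins other potassium channel pores. Its log2 signal was 6.73, 6.80, 6.63 and 6.47 in VEGFR1del_VEGFB hearts, 7.81 and 7.16 in WT_VEGFB hearts, 7.95, 7.83 and 7.75 in VEGFR1del_Scramble hearts and 8.09, 8.57 and 8.00 in WT_Scramble hearts. Every VEGFR1del_VEGFB heart lay below every other heart. Kcnv2 fell by 1.56 (SE 0.17) on the log2 scale, 2.96-fold, with an adjusted p of 8.31e-05, and by 0.92 in the authors' normalized table.

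Of the genes of the transient outward current, Kcnd2 and Kcnip2 fell and Kcnd3 was not called. Kcnd2 (Kv4.2), a pore of this current, had 7.49, 7.31, 7.17 and 8.03 in VEGFR1del_VEGFB hearts, 8.06 and 8.12 in WT_VEGFB hearts, 8.61, 8.38 and 8.36 in VEGFR1del_Scramble hearts and 8.66, 8.90 and 8.32 in WT_Scramble hearts. The VEGFR1del_VEGFB hearts were the lowest, replicate 4 closest to the others. Kcnd2 fell by 1.12 (SE 0.19; adjusted p = 0.00102), 2.18-fold, and its second probe fell by 0.77 (adjusted p over probes = 0.00142). Kcnip2 (KChIP2), the partner that carries Kv4 pores to the membrane, had 6.81, 6.70, 6.92 and 7.00 in VEGFR1del_VEGFB hearts, 7.05 and 7.73 in WT_VEGFB hearts, 7.59, 7.28 and 7.31 in VEGFR1del_Scramble hearts and 7.94, 7.35 and 7.71 in WT_Scramble hearts, with means of 6.86 ± 0.13 (SD, n = 4) in VEGFR1del_VEGFB hearts and 7.67 ± 0.30 (n = 3) in WT_Scramble hearts. The highest VEGFR1del_VEGFB heart, at 7.00, lay below the lowest WT_Scramble heart, at 7.35. Kcnip2 fell by 0.81 (SE 0.17; adjusted p = 0.00469), and its other probes had -0.61 (adjusted p over probes = 0.0390) and -0.74 (adjusted p over probes = 0.0595). Kcnd3 (Kv4.3), the other pore of this current, was detected on 6 arrays and had 4.65, 5.17, 4.66 and 4.91 in VEGFR1del_VEGFB hearts, 4.72 and 4.93 in WT_VEGFB hearts, 5.09, 4.86 and 4.86 in VEGFR1del_Scramble hearts and 5.33, 4.98 and 4.79 in WT_Scramble hearts. Its change of -0.18 (SE 0.15) did not pass the test.

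Kcna6 (Kv1.6), a delayed rectifier better known from neurons, had 5.49, 5.32, 4.86 and 5.16 in VEGFR1del_VEGFB hearts, 5.71 and 5.88 in WT_VEGFB hearts, 5.45, 5.27 and 5.60 in VEGFR1del_Scramble hearts and 6.01, 5.94 and 5.67 in WT_Scramble hearts. The deleted hearts of both viruses lay below the wild-type hearts of both viruses. It fell by 0.66 (SE 0.15; adjusted p = 0.00603), but by 0.16 in the authors' normalized table, where it was not called (adjusted p = 0.0727), and a second probe had -0.26 and was not called.

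Scn4b, the sodium channel beta 4 subunit, had 8.20, 8.27, 8.82 and 8.81 in VEGFR1del_VEGFB hearts, 9.52 and 8.44 in WT_VEGFB hearts, 9.30, 9.80 and 9.43 in VEGFR1del_Scramble hearts and 9.38, 9.37 and 9.76 in WT_Scramble hearts. The WT_VEGFB hearts were far apart, replicate 1 among the scramble hearts and replicate 2 among the VEGFR1del_VEGFB hearts. Scn4b fell by 0.98 (SE 0.24; adjusted p = 0.0119). The call was lost without WT_Scramble replicate 3 (adjusted p = 0.0556), and a second Scn4b probe had -0.27 and was not called.

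The calcium channel pore and the inward rectifiers moved less. Cacna1c (Cav1.2), the pore of the L-type calcium channel, had 5.39, 5.67, 5.74 and 5.49 in VEGFR1del_VEGFB hearts, 5.65 and 5.77 in WT_VEGFB hearts, 5.77, 5.80 and 5.80 in VEGFR1del_Scramble hearts and 6.11, 5.86 and 6.17 in WT_Scramble hearts, with means of 5.58 ± 0.16 (SD, n = 4) in VEGFR1del_VEGFB hearts and 6.05 ± 0.16 (n = 3) in WT_Scramble hearts. It fell by 0.47 (SE 0.11; adjusted p = 0.00860) at the probe of highest signal, while its other probe detected on all 12 arrays had 0.03 and was not called. The change was -0.31 with median scaling and -0.10 in the authors' normalized table, and neither was called, so its direction held and its call did not.

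Kcnj5 (Kir3.4), a subunit of the acetylcholine-gated potassium channel, had 5.70, 5.67, 5.74 and 5.57 in VEGFR1del_VEGFB hearts, 5.80 and 6.14 in WT_VEGFB hearts, 6.05, 5.97 and 5.74 in VEGFR1del_Scramble hearts and 5.86, 6.43 and 6.17 in WT_Scramble hearts. It fell by 0.48 (SE 0.14; adjusted p = 0.0245), and the call was lost (highest adjusted p = 0.119) without WT_Scramble replicate 2 or 3 or without VEGFR1del_VEGFB replicate 4. Its partner Kcnj3 (Kir3.1) had 5.19, 5.63, 5.46 and 5.53 in VEGFR1del_VEGFB hearts, 5.62 and 5.71 in WT_VEGFB hearts, 5.68, 6.38 and 5.96 in VEGFR1del_Scramble hearts and 5.79, 5.97 and 5.94 in WT_Scramble hearts. The VEGFR1del_VEGFB and WT_Scramble hearts did not overlap, but the change of -0.45 (SE 0.15) did not pass the test (adjusted p = 0.0511).

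Kcnj11 (Kir6.2), the pore of the ATP-sensitive potassium channel, had 6.33, 6.49, 6.16 and 6.35 in VEGFR1del_VEGFB hearts, 6.17 and 6.24 in WT_VEGFB hearts, 6.52, 6.45 and 6.75 in VEGFR1del_Scramble hearts and 6.79, 7.03 and 6.55 in WT_Scramble hearts. The VEGF-B hearts of both genotypes lay below all WT_Scramble hearts. It fell by 0.46 (SE 0.13; adjusted p = 0.0201), and the call was lost (highest adjusted p = 0.101) without WT_Scramble replicate 1 or 2 or VEGFR1del_VEGFB replicate 3. Kcnk3 (TASK-1), an acid-sensitive leak channel, read 9.34, 9.33, 9.28 and 9.20 in VEGFR1del_VEGFB hearts, 9.17 and 9.38 in WT_VEGFB hearts, 9.43, 9.70 and 9.37 in VEGFR1del_Scramble hearts and 9.68, 9.63 and 9.63 in WT_Scramble hearts. Its fall of 0.36 (SE 0.10; adjusted p = 0.0232) was the smallest of the called changes, and the call was lost without any of the WT_Scramble replicates 1, 2 or 3 or without VEGFR1del_VEGFB replicate 4 (adjusted p up to 0.0704). With median scaling Kcnj5, Kcnj11 and Kcnk3 were not called, and in the authors' normalized table Kcnj5 and Kcnj11 were not called.

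**Figure D3:**
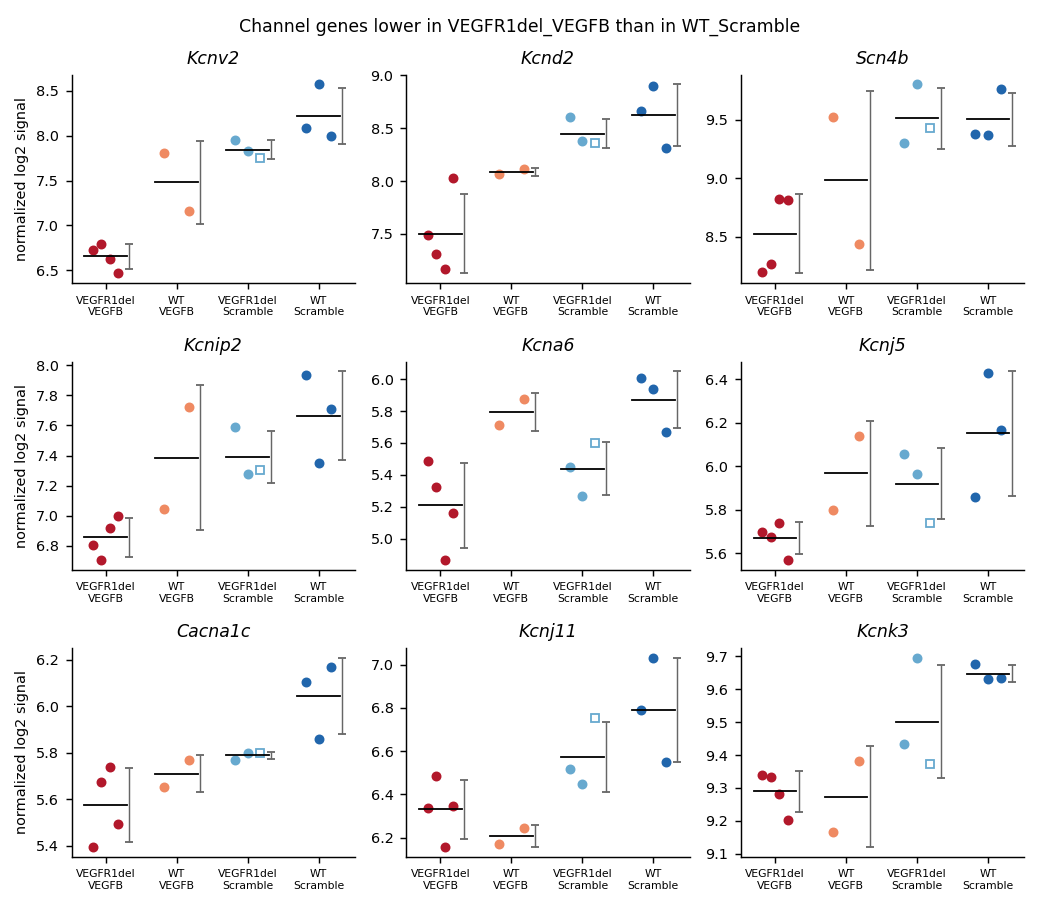
Normalized log2 signal (y axes, each panel on its own scale and not starting at 0) of the 9 channel genes called lower in VEGFR1del_VEGFB than in WT_Scramble hearts, 1 point per heart, with the group mean (line) and SD (bar); the open square is the doubted library. In each panel every VEGFR1del_VEGFB heart lies below every WT_Scramble heart.

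Among the 8 genes that rose, 4 were potassium channel auxiliary subunits. Kcne4, a single-span subunit that inhibits several Kv channels, had 6.10, 5.98, 6.10 and 6.00 in VEGFR1del_VEGFB hearts, 5.61 and 5.81 in WT_VEGFB hearts, 5.44, 5.71 and 6.08 in VEGFR1del_Scramble hearts and 5.15, 4.91 and 5.65 in WT_Scramble hearts. The groups at the ends of this series did not overlap, and the doubted library was the highest of its own group. Kcne4 rose by 0.81 (SE 0.17; adjusted p = 0.00511), 1.75-fold. Kcne1 (minK), the partner of Kcnq1, had 7.43, 6.85, 7.41 and 7.11 in VEGFR1del_VEGFB hearts, 6.73 and 7.39 in WT_VEGFB hearts, 6.95, 6.96 and 6.98 in VEGFR1del_Scramble hearts and 6.92, 6.22 and 6.24 in WT_Scramble hearts. The VEGFR1del_VEGFB and WT_Scramble ranges overlapped. Kcne1 rose by 0.74 (SE 0.20; adjusted p = 0.0186), its other probes had 0.21 and -0.01, and the call was lost (highest adjusted p = 0.0854) without WT_Scramble replicate 2 or 3 or VEGFR1del_VEGFB replicate 1.

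Kcnk6 (TWIK-2), a leak channel described in blood vessels, varied little within each group. It read 7.66, 7.72, 7.75 and 7.62 in VEGFR1del_VEGFB hearts, 7.48 and 7.60 in WT_VEGFB hearts, 7.34, 7.28 and 7.46 in VEGFR1del_Scramble hearts and 7.03, 6.89 and 7.15 in WT_Scramble hearts. No value of these 4 groups overlapped another group. Kcnk6 rose by 0.66 (SE 0.09; adjusted p = 0.000366), 1.59-fold, and its second probe rose by 0.65 (adjusted p over probes = 0.0106).

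Kcna5 (Kv1.5), a delayed rectifier of heart and vascular muscle, had 6.13, 6.54, 6.08 and 6.10 in VEGFR1del_VEGFB hearts, 5.85 and 6.08 in WT_VEGFB hearts, 5.52, 6.03 and 5.71 in VEGFR1del_Scramble hearts and 5.85, 5.53 and 5.33 in WT_Scramble hearts. It rose by 0.64 (SE 0.16; adjusted p = 0.0126), and the call was lost without WT_Scramble replicate 3 (adjusted p = 0.0612). Kcnab2, a cytosolic beta subunit of Kv1 channels, had 5.42, 5.99, 6.57 and 6.42 in VEGFR1del_VEGFB hearts, 5.75 and 6.06 in WT_VEGFB hearts, 5.26, 5.41 and 5.54 in VEGFR1del_Scramble hearts and 5.60, 5.38 and 5.12 in WT_Scramble hearts. Replicate 1 of the VEGFR1del_VEGFB hearts lay within the WT_Scramble range. Kcnab2 rose by 0.73 (SE 0.22; adjusted p = 0.0342), and the call was lost (highest adjusted p = 0.128) without WT_Scramble replicate 2 or 3 or VEGFR1del_VEGFB replicate 3 or 4. It was also lost with no filter on dim probes and with only the arrays of the groups compared (highest adjusted p = 0.0860).

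The remaining raised genes gave dim signals. Kcnj15 (Kir4.2), an inward rectifier known from kidney, had 5.54, 5.03, 5.10 and 5.55 in VEGFR1del_VEGFB hearts, 5.31 and 5.13 in WT_VEGFB hearts, 4.53, 4.90 and 5.26 in VEGFR1del_Scramble hearts and 4.65, 4.54 and 4.89 in WT_Scramble hearts. It was above background on all 4 VEGFR1del_VEGFB arrays and on 1 of the 3 WT_Scramble arrays. It rose by 0.61 (SE 0.18; adjusted p = 0.0268), and the call was lost (highest adjusted p = 0.103) without WT_Scramble replicate 1 or 2 or VEGFR1del_VEGFB replicate 1 or 4. It was also lost with no background correction and with no filter on dim probes (highest adjusted p = 0.0619). Kcnip3 (KChIP3, also the transcriptional repressor DREAM) was above background on all 4 VEGFR1del_VEGFB arrays and on none of the 3 WT_Scramble arrays. Its signal was 5.19, 5.25, 5.22 and 5.49 in VEGFR1del_VEGFB hearts, 5.11 and 5.04 in WT_VEGFB hearts, 4.95, 4.67 and 4.72 in VEGFR1del_Scramble hearts and 4.81, 4.84 and 4.59 in WT_Scramble hearts. The VEGFR1del_VEGFB hearts were the highest. Kcnip3 was at least 1.30-fold higher in VEGFR1del_VEGFB hearts, measured against the detection limit. The adjusted p of 0.00385 (limma) belongs to the fitted change of 0.54, which uses WT_Scramble values below background, and not to this bound. Scn2b, the sodium channel beta 2 subunit, had 5.40, 5.26, 5.46 and 5.28 in VEGFR1del_VEGFB hearts, 5.40 and 5.32 in WT_VEGFB hearts, 5.23, 4.83 and 5.01 in VEGFR1del_Scramble hearts and 4.90, 5.01 and 4.90 in WT_Scramble hearts. It rose by 0.41 (SE 0.11; adjusted p = 0.0155), the call was lost without WT_Scramble replicate 1 (adjusted p = 0.0518), and its other probes had -0.38 and 0.08, neither called. Its call was also lost with no background correction (adjusted p = 0.0841).

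**Figure D4:**
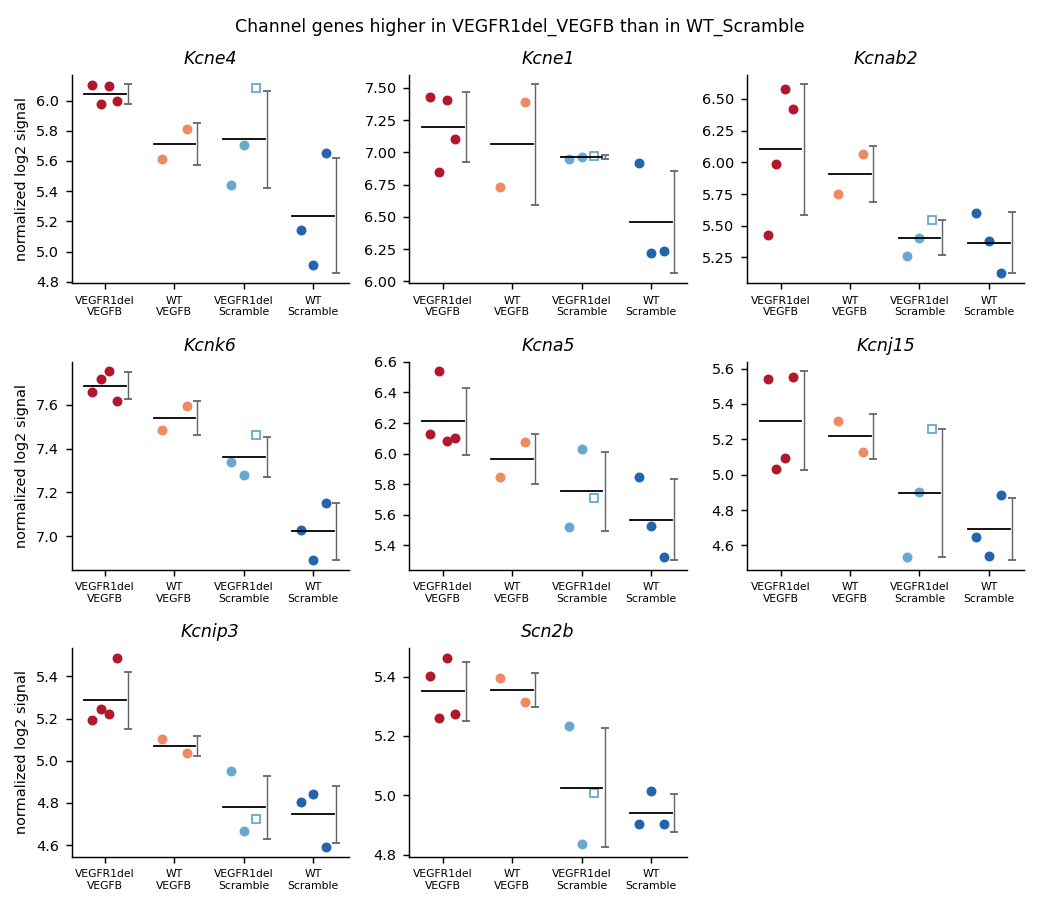
Normalized log2 signal (y axes, each panel on its own scale and not starting at 0) of the 8 channel genes called higher in VEGFR1del_VEGFB than in WT_Scramble hearts, 1 point per heart, with the group mean (line) and SD (bar); the open square is the doubted library. Kcnk6 orders the 4 groups without overlap, while Kcnab2 and Kcne1 overlap between VEGFR1del_VEGFB and WT_Scramble hearts.

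Markers of vessel cells moved with these genes. Of 11 endothelial markers, 9 rose, and their summed signal was 27796 to 29239 in VEGFR1del_VEGFB hearts, 22225 to 22878 in WT_VEGFB hearts, 18255 to 24196 in VEGFR1del_Scramble hearts and 13932 to 15260 in WT_Scramble hearts. The doubted library was the highest of the VEGFR1del_Scramble hearts, which reached 19456 without it. Of 7 pericyte markers 6 rose, with sums of 4843 to 5366 in VEGFR1del_VEGFB hearts and 2766 to 3129 in WT_Scramble hearts. Of 11 heart muscle markers 1 fell and none rose. The atrial list had 5 of 8 genes above background, with sums of 12300 to 22350 in VEGFR1del_VEGFB hearts and 6198 to 7905 in WT_Scramble hearts. Nppa made up most of these sums, with log2 signals of 13.53 to 14.42 in VEGFR1del_VEGFB hearts, where Stard10 read at most 7.46. Within the atrial list Nppa rose by 1.26 and Dkk3 by 1.71, Stard10 fell by 0.93, and Myl7, Sln and Bmp10 were not above background. Among conduction markers 3 of 7 were above background and 1 rose, and among neuron and Schwann cell markers 3 of 8, with 1 higher and 1 lower. Smooth muscle markers had 6 of 7 above background and 1 lower, macrophage markers 5 of 5 and 1 higher, and skeletal muscle markers 4 of 7 and none called. The part of these cells in the channel changes was not tested.

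A further 10 genes of the heart muscle list, Kcnd3 and Kcnj3 among them, are given whatever their change, and none was called between VEGFR1del_VEGFB and WT_Scramble hearts. Cacna2d1, the alpha 2 delta subunit of calcium channels, had 9.14, 9.16, 8.25 and 8.95 in VEGFR1del_VEGFB hearts, 8.69 and 9.23 in WT_VEGFB hearts, 9.71, 9.01 and 9.11 in VEGFR1del_Scramble hearts and 9.51, 9.61 and 9.39 in WT_Scramble hearts. The change was -0.63 (SE 0.23; adjusted p = 0.0650). Kcnj2 (Kir2.1), the main inward rectifier pore, had 5.77, 5.59, 5.74 and 5.08 in VEGFR1del_VEGFB hearts, 5.68 and 6.01 in WT_VEGFB hearts, 6.02, 5.95 and 6.11 in VEGFR1del_Scramble hearts and 6.01, 6.30 and 5.69 in WT_Scramble hearts. The change was -0.45 (SE 0.18; adjusted p = 0.0865). For Kcnj2 the groups overlapped, and for Cacna2d1 every VEGFR1del_VEGFB heart lay below every WT_Scramble heart. Kcnj12 (Kir2.2), a relative of Kcnj2, had 5.61, 5.67, 5.86 and 5.81 in VEGFR1del_VEGFB hearts, 5.97 and 5.60 in WT_VEGFB hearts, 6.14, 6.19 and 5.55 in VEGFR1del_Scramble hearts and 5.97, 6.11 and 6.03 in WT_Scramble hearts, a change of -0.30 (SE 0.15). Kcnh2 (ERG), the rapid delayed rectifier pore, had 8.87, 8.76, 8.81 and 8.54 in VEGFR1del_VEGFB hearts, 8.84 and 8.78 in WT_VEGFB hearts, 8.99, 9.21 and 8.87 in VEGFR1del_Scramble hearts and 8.80, 9.09 and 8.99 in WT_Scramble hearts, a change of -0.21 (SE 0.12).

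The T-type calcium channel pores Cacna1g and Cacna1h, known from pacemaker tissue, spread widely among WT_Scramble hearts, where replicate 3 was the lowest in both. Cacna1g had 5.17, 5.41, 5.31 and 5.59 in VEGFR1del_VEGFB hearts, 5.33 and 5.37 in WT_VEGFB hearts, 5.37, 5.74 and 5.62 in VEGFR1del_Scramble hearts and 5.67, 6.02 and 4.98 in WT_Scramble hearts, a change of -0.19 (SE 0.20). Cacna1h had 7.74, 7.83, 7.61 and 7.04 in VEGFR1del_VEGFB hearts, 7.77 and 7.76 in WT_VEGFB hearts, 7.82, 8.03 and 7.22 in VEGFR1del_Scramble hearts and 7.88, 8.72 and 7.01 in WT_Scramble hearts, a change of -0.31 (SE 0.32). Cacnb2, the cytosolic subunit that brings L-type pores to the membrane, had 7.57, 8.17, 7.66 and 8.02 in VEGFR1del_VEGFB hearts, 7.61 and 7.65 in WT_VEGFB hearts, 8.13, 7.74 and 8.50 in VEGFR1del_Scramble hearts and 7.76, 8.29 and 8.26 in WT_Scramble hearts, a change of -0.24 (SE 0.19). The pacemaker channel Hcn2 had 8.22, 7.96, 7.84 and 7.69 in VEGFR1del_VEGFB hearts, 7.46 and 8.07 in WT_VEGFB hearts, 7.75, 7.66 and 8.07 in VEGFR1del_Scramble hearts and 7.54, 7.42 and 8.29 in WT_Scramble hearts, a change of 0.18 (SE 0.21). Over the 20 genes of that list above background, 2 were called higher and 8 lower, or 50% against 21% of all features. Their median was -0.40, against -0.03 over all features. The list was chosen with earlier results of these data known, so these values describe it and are not independent support. Their summed linear signal was 3457 to 3727 in VEGFR1del_VEGFB hearts, 3966 to 4045 in WT_VEGFB hearts, 4503 to 4918 in VEGFR1del_Scramble hearts (4866 to 4918 without the doubted library) and 4910 to 5407 in WT_Scramble hearts.

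None of the other members was called between VEGFR1del_VEGFB and WT_Scramble hearts at the probe used for the gene. The 5 sodium channel pores above background, Scn2a, Scn3a, Scn7a, Scn8a and Scn10a, are better known from nerve and glia than from heart muscle. Their log2 fold changes ran between -0.15 and 0.41, and none was called. By class, with the genes above included, leak channels ran between -0.41 and 0.66 with a median of -0.13, and inward rectifiers between -0.48 and 0.61 with a median of -0.45. Potassium channel auxiliary subunits had a median of 0.54, with 4 higher and 1 lower of 7. This median is the value of Kcnip3, which was below background in WT_Scramble hearts. The 17 voltage-gated potassium pores and silent partners had a median of -0.18, with 1 higher and 3 lower. Kcng2, another silent partner, was called at its second probe (-0.43; adjusted p over probes = 0.0406) but not at its brighter probe (-0.14). Kcnn1 had -0.24, and Kcnq1ot1 and Scnm1 had 0.04 and -0.25, none of them called.

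VEGF-B in hearts without endothelial VEGFR1 was read by setting VEGFR1del_VEGFB against VEGFR1del_Scramble hearts. Kcnv2, Kcnd2 and Scn4b fell and Kcnip3 rose, which makes 4 of 59 genes called, or 6.78%, against 4.61% of all features (2.82% higher and 1.79% lower). Kcnv2 fell by 1.19 (SE 0.17; adjusted p = 0.00834), Kcnd2 by 0.95 (SE 0.19; adjusted p = 0.0188) and Scn4b by 0.99 (SE 0.24; adjusted p = 0.0378). Kcnip3 rose by 0.51 (SE 0.11; adjusted p = 0.0258) and was above background in 1 of the 3 VEGFR1del_Scramble hearts. Values of these 4 genes did not overlap between the groups, and among all 59 genes 16 did not overlap, or 27.1%. The share of all features without overlap is not given for this comparison, so these values describe the channel genes only. Without the doubted library the same 4 genes were called, against 7.3% of all features, with changes of -1.24 for Kcnv2 (adjusted p = 0.00522), -0.99 for Kcnd2 (adjusted p = 0.0202), -1.03 for Scn4b (adjusted p = 0.0493) and 0.48 for Kcnip3 (adjusted p = 0.0427). Kcnv2 kept its call in each of the 12 fits without 1 array. Without VEGFR1del_Scramble replicate 1, and likewise without replicate 2, it was the only channel gene called. Kcnd2 then had an adjusted p up to 0.0888. Kcnip3 lost its call in those fits and without VEGFR1del_VEGFB replicate 4, with 0.110 as the highest adjusted p. Scn4b lost its call without VEGFR1del_VEGFB replicate 1, 2 or 3, VEGFR1del_Scramble replicate 1 or 2, or WT_Scramble replicate 1 or 2, with 0.154 as the highest adjusted p. With all arrays kept, Scn4b also lost its call with no filter on dim probes and with robust variance and a trend (highest adjusted p = 0.0844). Kcnip3 lost its call with no background correction and with only the arrays of the groups compared (highest adjusted p = 0.0816). With median scaling, and likewise in the authors' normalized table, 4 genes were higher and 3 lower, Kcna5, Kcnab2 and Kcnk6 being added. The share of all features called under these settings is not given here. In this comparison 7 of 11 endothelial and 2 of 7 pericyte markers rose (8 and 3 without the doubted library). Of the 5 atrial markers above background 1 was called higher and 1 lower, with Nppa at 0.98 and Stard10 at -0.62. The part of these cells in the channel changes was not tested.

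In wild-type hearts Kcnk6 alone rose with VEGF-B among the 59 genes, or 1.69%, against 1.99% of all features called and 1.75% called higher. Kcnk6 rose by 0.52 (SE 0.11; adjusted p = 0.0349) over WT_Scramble hearts. Leaving out any WT_Scramble heart (replicate 1, 2 or 3), any WT_VEGFB heart (replicate 1 or 2) or VEGFR1del_VEGFB replicate 2 ended the call, with 0.243 as the highest adjusted p. Without the doubted library it was again the only channel gene called (2.81% of features; adjusted p = 0.0291). The call was lost when the authors' normalization set entered the model, with a change of 0.36 and an adjusted p of 0.752. In that model the WT_VEGFB and WT_Scramble hearts lie in different sets, which only the doubted library links, so the value rests on that library and could not be fitted without it. The call was also lost with only the arrays of the groups compared. Kcnv2 had -0.74 (SE 0.20; adjusted p = 0.0803) and Kcnj11 -0.58 (SE 0.15; adjusted p = 0.0696), and in both genes the WT_VEGFB hearts lay below all WT_Scramble hearts. Values did not overlap for 21 of 59 genes, or 35.6%, against 33.9% of features. In this comparison 3 of 11 endothelial and 4 of 7 pericyte markers rose too, and their part in the change of Kcnk6 was not tested. The 2 WT_VEGFB hearts limit the precision here. Both VEGF-B comparisons share no hearts, and the test of their difference called 0 of 59 genes and 0% of features (2 of 59 at an unadjusted p under 0.05, against 5.04% of features). For Kcnv2 the difference was -0.45, with a 95% interval of -1.01 to 0.11, and for Kcnd2 it was -0.41, with an interval of -1.04 to 0.21.

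**Figure D5:**
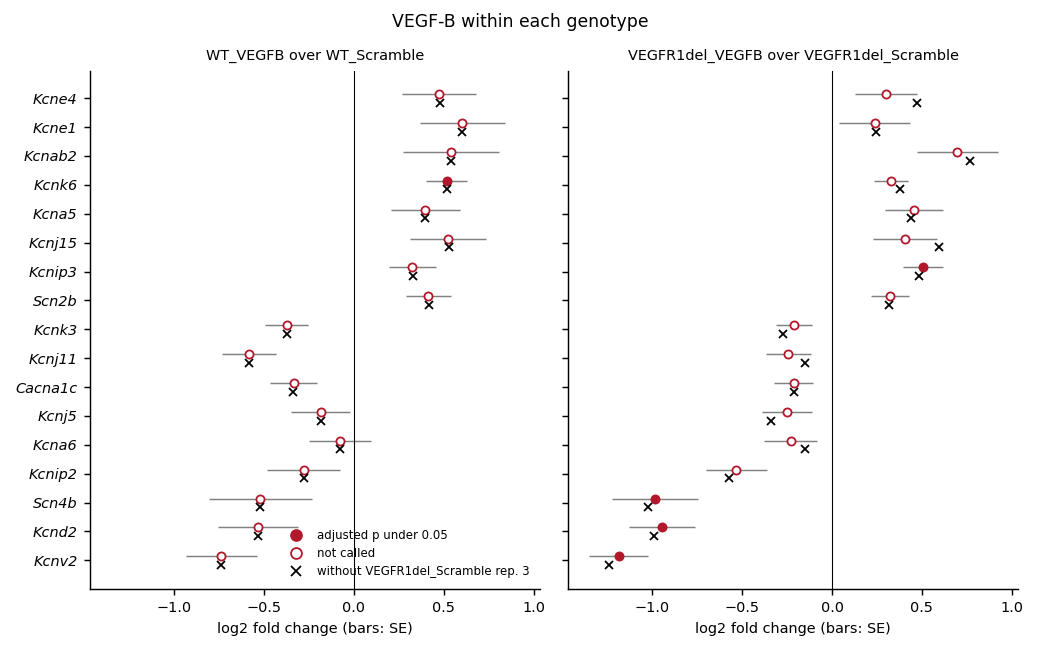
Log2 fold change with its standard error (x axis) of the VEGF-B virus in wild-type hearts (left) and in VEGFR1-deleted hearts (right), for the 17 channel genes called between VEGFR1del_VEGFB and WT_Scramble hearts (y axis); crosses leave out the doubted library. Only Kcnk6 is called on the left, and Kcnv2, Kcnd2, Scn4b and Kcnip3 on the right.

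The deletion without VEGF-B, in VEGFR1del_Scramble against WT_Scramble hearts, called 0 of 59 genes in limma, against 0.0562% of all features. At an unadjusted p under 0.05 there were 7, or 11.9%, against 11.4% of features. The deletion with VEGF-B, in VEGFR1del_VEGFB against WT_VEGFB hearts, also called 0 genes, against 0% of features, and 7 had an unadjusted p under 0.05, or 11.9% against 11% of features. Its largest change was Kcnv2, with -0.82 (SE 0.19) and an adjusted p of 0.147. In scramble hearts Kcnv2 had -0.38 (SE 0.18), with an interval of -0.77 to 0.01, Kcnk6 had 0.34 (SE 0.10; adjusted p = 0.194) and Kcne4 had 0.51 (SE 0.18; adjusted p = 0.288). Without the doubted library these changes were -0.33 for Kcnv2 (adjusted p = 0.705), 0.29 for Kcnk6 (adjusted p = 0.468) and 0.34 for Kcne4 (adjusted p = 0.646). Without the doubted library the deletion again called 0 channel genes with scramble (0.0638% of features; 4 genes at an unadjusted p under 0.05, against 8.85% of features) and with VEGF-B (0.0425% of features; 8 genes, against 11.9%).

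Proteins that work beside these channels were read from a list of 38 genes of calcium handling, scaffolds, gap junctions and regulators, 34 of them on the array and 29 above background. Between VEGFR1del_VEGFB and WT_Scramble hearts 2 were higher and 5 lower, or 24.1%, close to the 21% of all features called, with a median of -0.16 against -0.03 over all features, and in the other comparisons none was called. Fgf13, which binds sodium channel tails, fell by 0.60 (SE 0.12; adjusted p = 0.00352). Ank2 (ankyrin-B), which anchors channels and transporters, fell by 0.58 (adjusted p = 0.0172). Abcc8 (SUR1), a sulfonylurea receptor that can pair with Kcnj11, fell by 0.58 (adjusted p = 0.0116), and Abcc9 (SUR2), also on the pericyte list, had 0.24 and was not called. Gjc1, a connexin of gap junctions, rose by 0.37 (adjusted p = 0.0358).

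Promoters are shown for the called genes with the largest changes whose RefSeq entry was the gene's only one and lay outside the gene and give the sequence at genes that fell (Kcnd2, Scn4b) and rose (Kcne4, Kcna5). Of the 17 called genes, 12 had an entry among the RefSeq promoters. Each sequence holds the 250 bases before the start, 5′ to 3′ on the gene's strand (GRCm38.p6), at chr6:21215096-21215345 (+) for Kcnd2, chr9:45138374-45138623 (+) for Scn4b, chr1:78816661-78816910 (+) for Kcne4 and chr6:126535556-126535805 (-) for Kcna5. Capitals mark the E-box CANNTG, a site class of basic helix-loop-helix factors that reads the same on both strands.
Kcnd2: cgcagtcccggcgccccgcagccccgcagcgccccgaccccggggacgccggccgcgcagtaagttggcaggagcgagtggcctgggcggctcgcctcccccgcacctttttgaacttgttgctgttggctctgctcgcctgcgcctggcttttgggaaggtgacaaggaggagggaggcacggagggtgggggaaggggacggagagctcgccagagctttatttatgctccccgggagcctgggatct
Scn4b: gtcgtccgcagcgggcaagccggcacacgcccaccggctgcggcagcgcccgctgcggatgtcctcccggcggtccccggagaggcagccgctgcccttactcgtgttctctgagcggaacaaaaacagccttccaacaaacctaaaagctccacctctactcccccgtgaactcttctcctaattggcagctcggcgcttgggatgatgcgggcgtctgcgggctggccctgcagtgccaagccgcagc
Kcne4: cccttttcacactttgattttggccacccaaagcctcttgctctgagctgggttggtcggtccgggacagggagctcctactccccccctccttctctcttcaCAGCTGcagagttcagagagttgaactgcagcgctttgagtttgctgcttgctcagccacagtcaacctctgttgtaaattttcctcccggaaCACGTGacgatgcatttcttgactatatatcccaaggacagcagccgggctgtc
Kcna5: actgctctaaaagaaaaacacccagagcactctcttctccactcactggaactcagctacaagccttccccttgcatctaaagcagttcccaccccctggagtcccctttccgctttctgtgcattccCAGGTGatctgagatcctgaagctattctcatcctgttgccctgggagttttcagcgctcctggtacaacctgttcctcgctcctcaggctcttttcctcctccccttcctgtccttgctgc

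Both lowered genes held no E-box in this window, Kcne4 held 2 and Kcna5 held 1. An E-box occurs in 66.2% of 32851 promoter windows of this length. The GATA motif AGATAA (either strand; 9.99% of windows), the Iroquois motif ACANNTGT (reads the same on both strands and always contains an E-box; 6.31%) and the CArG box, the serum response factor site (1.47%), were in none of these 4 windows.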

How the data were processed

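Biotin-labelled cRNA of 12 hearts was read on bead arrays. The table of non-normalized values deposited by the authors gives a probe intensity on a linear scale and, per the file headers, a detection p-value for each array. The authors' second deposited table holds log2 values, which were quantile normalized in 3 separate sets of 5, 3 and 4 arrays, as found from the values. Its method is not given in the sources used here.

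The neqc function was run on the intensities of the 12 arrays together (limma 3.58.1, R 4.3.3; normexp background from the detection p-value, offset 16, quantile scaling), which gave the log2 signals used here. A probe entered with a detection p-value under 0.05 on at least 2 arrays (20312 probes), and a gene was represented by its probe of highest mean (14240 features, 11009 with a symbol). Levels of different probes cannot be compared. Symbols came from the platform annotation, which named 1 gene for 34885 probes, several for 18 and none for 10378. All 126 member genes matched a RefSeq gene ID.

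Group means were fitted per feature with lmFit and eBayes, and 6 contrasts were taken, two-sided, with Benjamini-Hochberg adjustment over all features. P-values measure the spread between mice. The procedure was tested on simulated data. Where a group was above background on no array, a change is a bound against the detection limit. The members, lists and alternatives were chosen with earlier results of these data known. Named are the members called in any contrast, the heart muscle channel list whatever their change, and up to 4 called partners. Kcnh7, Kcng2, Kcnab1, Kcne1l, the remaining sodium channel pores, Kcnn1, the 3 genes that do not encode channels and the marker genes Nppa, Dkk3 and Stard10 were named after their values were seen. Alternatives covered background correction, scaling, filter, probe choice, the authors' table, variance model, threshold, blocks and leaving out each array. Promoter sequences are from RefSeq (GRCm38.p6). Figures were drawn with matplotlib 3.10.9 (Python 3.11.15).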

Additional observations from a re-analysis of the deposited data

Results flagged for a closer look

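Kcna5 in VEGFR1del_VEGFB replicate 2 stood apart from its group. Its log2 signal was 6.54, while the other 3 hearts of the group lay at 6.08 to 6.13, a gap of 0.904 of the group's whole range (Dixon's test). The rule was run on this group for each of 27 named genes, and chance flags about 1 in 20 groups. A single flag of this kind can therefore arise by chance. Without that heart Kcna5 kept its call against WT_Scramble hearts. The source of the high value was not tested.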

How the results depend on the processing

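The 22 calls of single channel genes kept their direction in all 287 recomputed values, and 262 of these values kept the call too. These values leave out the fits without 1 array and include those with only the arrays of the groups compared. They also include the threshold of 0.10, which reuses the reported fit, so there neither direction nor call could be lost. The other filters, each probe tested on its own, and robust variance with a trend use the same log2 signals and group means. Unless a filter picked another probe of the gene, the direction there was fixed in advance and only the call could change. The counts of called genes in this section are given without the share of all features called under the same setting. They describe the channel genes only, since a setting can change the calls of all features. Between VEGFR1del_VEGFB and WT_Scramble hearts 11 to 19 genes were called when 1 array was left out, the lowest without WT_Scramble replicate 2. With VEGF-B in deleted hearts (4 calls) there were 7 with median scaling, 7 in the authors' table, 8 at an adjusted p under 0.10, and 1 to 4 when 1 array was left out. With VEGF-B in wild-type hearts (1 call) there were 2 with no background correction, 2 with an offset of 50, 2 with robust variance and a trend, 2 with array weights, 3 at an adjusted p under 0.10, 0 with the normalization set as a fixed term, 0 with only the arrays compared, and 0 to 1 when 1 array was left out. The deletion with VEGF-B called 1 gene with robust variance and a trend, Kcnv2, and 0 in the 12 fits that left out 1 array, as did the deletion in scramble hearts and the difference between the VEGF-B responses. The number of genes above background was 59, against 37 at a detection p under 0.01 and 29 when detection was required on all 12 arrays. The normalization set as a fixed term could not be fitted for comparisons with VEGFR1del_VEGFB hearts. Median scaling moved the median of all features by 0.13 in each VEGF-B comparison and by 0.09 between VEGFR1del_VEGFB and WT_Scramble hearts. Relative to the median of all features under that scaling, the channel genes' medians were -0.14 for VEGF-B in wild-type hearts, -0.11 in deleted hearts and -0.17 between VEGFR1del_VEGFB and WT_Scramble hearts. Where no value shows it, the cause of these differences was not tested.

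Replicate numbers showed no clear pairing of the hearts. In 15 pairs with the same number the deviations correlated between -0.04 and 0.115, and 1 pair passed 0.1. In 38 pairs with different numbers they correlated between -0.13 and 0.156. With so few hearts in a group, these values cannot decide whether the hearts were paired. With a replicate block the calls numbered 14 between VEGFR1del_VEGFB and WT_Scramble hearts, 3 with VEGF-B in deleted hearts and 1 in wild-type hearts. It ended the calls of Kcnab2, Kcnj15, Kcnj5 and Kcnk3 between VEGFR1del_VEGFB and WT_Scramble hearts and of Kcnip3 and Scn4b with VEGF-B in deleted hearts.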

Other observations

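Scn2b and Scn4b neighbour each other in the RefSeq gene order (GRCm38.p6) and were called in opposite directions between VEGFR1del_VEGFB and WT_Scramble hearts, Scn2b at 0.41 and Scn4b at -0.98. Each rests on 1 probe, since the other probes of both genes were not called. Kcna6 and Kcna1 are also neighbours, and Kcna1 was not above background.

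Of 29 further member probes above background, in 17 genes, 4 were called between VEGFR1del_VEGFB and WT_Scramble hearts, those of Kcnd2, Kcnip2, Kcng2 and Kcnk6. The share of all probes called is not given here, so this count describes these probes only. With 1 probe a gene, 21% of all features were called in this comparison. Kcnj3 was called under several settings and not in the reported fit, for example at -0.45 with the arrays of the groups compared alone (adjusted p = 0.0275). Kcnab1 (Kv beta 1) had -0.57 and was not called, but without WT_Scramble replicate 3 it had -0.90 (adjusted p = 0.00780). This Kcnab1 probe was detected on 9 arrays, and its other probes above background had -0.10 and -0.01. Scn3a had 0.41 and was not called, but without VEGFR1del_VEGFB replicate 3 it had 0.57 (adjusted p = 0.0200). Kcnab1 and Scn3a were picked because leaving out a single array gave a call. Cacna1g, Kcne1l and Kcnj2, among others, gained a call in the same way.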
